A study of Homo sapiens with 6 samples.

Results

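The protocadherin genes were described in 143B cells, a human osteosarcoma cell line, with and without deletion of CNTNAP4. Members were taken by symbol from the deposited table. These were the symbols of the clustered alpha (PCDHA, PCDHAC), beta (PCDHB) and gamma (PCDHGA, PCDHGB, PCDHGC) genes and the numbered non-clustered PCDH genes, without PCDH11Y. This gave 71 of the 54308 genes listed, of which 16 were alpha, 19 beta, 24 gamma and 12 non-clustered. The study made bulk RNA-seq libraries of 3 vector control (VC) and 3 CNTNAP4 knockout (KO) replicates. VC cells had been transfected with the vector plasmid and KO cells of the same line with a CRISPR/Cas9 plasmid against CNTNAP4, for 48 h in both groups by the labels, with all cells grown in DMEM with serum. The methods instead give a longer time, after which single cells were sorted and grown into colonies. They describe the sequenced 143B cells of both groups as clonal. Which clone or clones gave the KO libraries is not stated, nor how the 48 h of the labels relates to this. The 3 replicates of a group are called biological in the design text, without naming separate clones or cultures, and p-values measure the spread between these libraries. With the clones unnamed, a difference between KO and VC cannot be told apart from a difference between clones.

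Protocadherins are transmembrane cadherin-like adhesion proteins. In the alpha and gamma clusters each variable exon has its own promoter and is spliced to constant exons that encode a shared cytoplasmic tail, while each beta gene stands alone without a constant region. A neuron usually transcribes a few clustered genes, chosen largely at random through promoters that bind CTCF and are looped to distant enhancers by cohesin, and the resulting surface code lets the branches of a neuron recognise themselves. The non-clustered delta protocadherins lie on several chromosomes and join cell adhesion to the actin cytoskeleton. Protocadherin genes are often silenced by DNA methylation in tumours.

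The 3 clusters follow each other on the long arm of chromosome 5. In the GENCODE 29 annotation of GRCh38, the listed alpha genes span chr5:140786136-141012347 (226 kb), the beta genes chr5:141051135-141249365 (198 kb) and the gamma genes chr5:141330571-141512981 (182 kb), all on the plus strand. The promoters of clustered genes are known to share a conserved element, and the short motif GNCGCTG was picked after the promoter windows had been read. In RefSeq windows of GRCh38.p14 that run from 250 bases before a gene start to 50 bases after it, the motif lay on the gene's own strand in 6 of 13 alpha, 12 of 14 beta and 18 of 20 gamma promoters. None of the 10 non-clustered promoters held it on that strand, and 2 of the 10 held it when both strands were read. Over all 35116 promoters, 14.7% held it on their own strand and 25.3% on either. The windows below, 5′ to 3′ on the plus strand with the motif in capitals, belong to the clustered genes that carry the comparison and to the near copies of PCDHB8 and PCDHGB5.
PCDHB2: agagacgcggggtGGCGCTGcagccttaga
PCDHB8: gaggacccgtggtGGCGCTGcaggataaga
PCDHB16: gagaacgcgtggtGGCGCTGcaggttaaga
PCDHB12: ggagacgcgtggtGGCGCTGcaggataata
PCDHB13: gaggacgcgtggtGGCGCTGcaggataaga
PCDHGB4: gctgactctgggcGCCGCTGttggccaaag
PCDHGB5: gctgactctgggcGCCGCTGttggccaaag
PCDHGA9: taggactctgagcGCCGCTGttgatcaact
PCDHGC3: tgggactctgtgtGCCGCTGtcggccaatg
These windows lie, in the same order, at chr5:141094545-141094574, chr5:141177778-141177807, chr5:141182311-141182340, chr5:141208644-141208673, chr5:141213866-141213895, chr5:141387618-141387647, chr5:141397864-141397893, chr5:141402715-141402744 and chr5:141475881-141475910. The beta genes that differed between the groups in opposite directions, described below, all held the motif. PCDHAC1, PCDHAC2 and PCDHB14 had no match on their own strand in this window.

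The authors deposited log2 signals that had been quantile-normalized between the 6 libraries. Genes with a value numbered 20333 to 21041 per library, and the median signal was 0.62 in each. The deleted gene, CNTNAP4, was listed with a signal in a single library, VC replicate 3 (log2 signal -7.18), and could not be compared. Of 9 mesenchymal and osteoblast markers, VIM (10.3 to 10.9) and SPARC (6.46 to 6.95) were highest in every library. COL1A1 (2.28 to 2.73), SPP1 (2.37 to 4.37) and RUNX2 (1.30 to 1.69) lay above the median, and ALPL (-1.34 to -0.49) and COL1A2 (-5.72 to -4.59) under it. BGLAP had values in KO replicates 1 and 2 alone, and the late osteoblast marker IBSP in no library. The epithelial keratin KRT18 was also high (8.63 to 9.06). The table gives no read counts. Signals of the 1264 genes with a value in a single library fell with exonic length across genes (Pearson's r = -0.786, Spearman's rho = -0.749, a description over genes that share libraries), which places the signals on a scale per length. The number of reads behind a value was therefore estimated from the level at which these genes gathered. Between 37.4% and 44.3% of them lay within 0.2 log2 units of that level in each library, and the estimates are approximate.

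Most protocadherins were at the bottom of the signal range. Of the 71 genes, 15 had no value in any library (8 alpha, 4 beta and 3 gamma) and 26 had a value in all 6. By library, 41, 38 and 43 of them had a value in VC (replicates 1 to 3) and 45, 40 and 36 in KO. A further 13 had values in 1 group alone. PCDHA3, PCDHA4, PCDHA9, PCDHA10, PCDHB4, PCDHGA8, PCDH8 and PCDH17 were listed in VC libraries only, and PCDHA1, PCDHA8, PCDHB18P, PCDHGA3 and PCDHGB1 in KO libraries only. PCDHA4 was the one gene of these with values in all 3 libraries of a group, at -9.50, -9.51 and -9.64 in VC, or about 1 estimated read in each. The largest value among these 13 genes was that of PCDHGB1 in KO replicate 1, at about 5.2 estimated reads. At this level an empty cell could not be told apart from a low signal, and these genes were not tested. Another 6 genes (PCDHB3, PCDHB6, PCDHB7, PCDHGA2, PCDHGA4 and PCDHGA7) had values in both groups, but in too few libraries for the test.

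**Figure D1:**
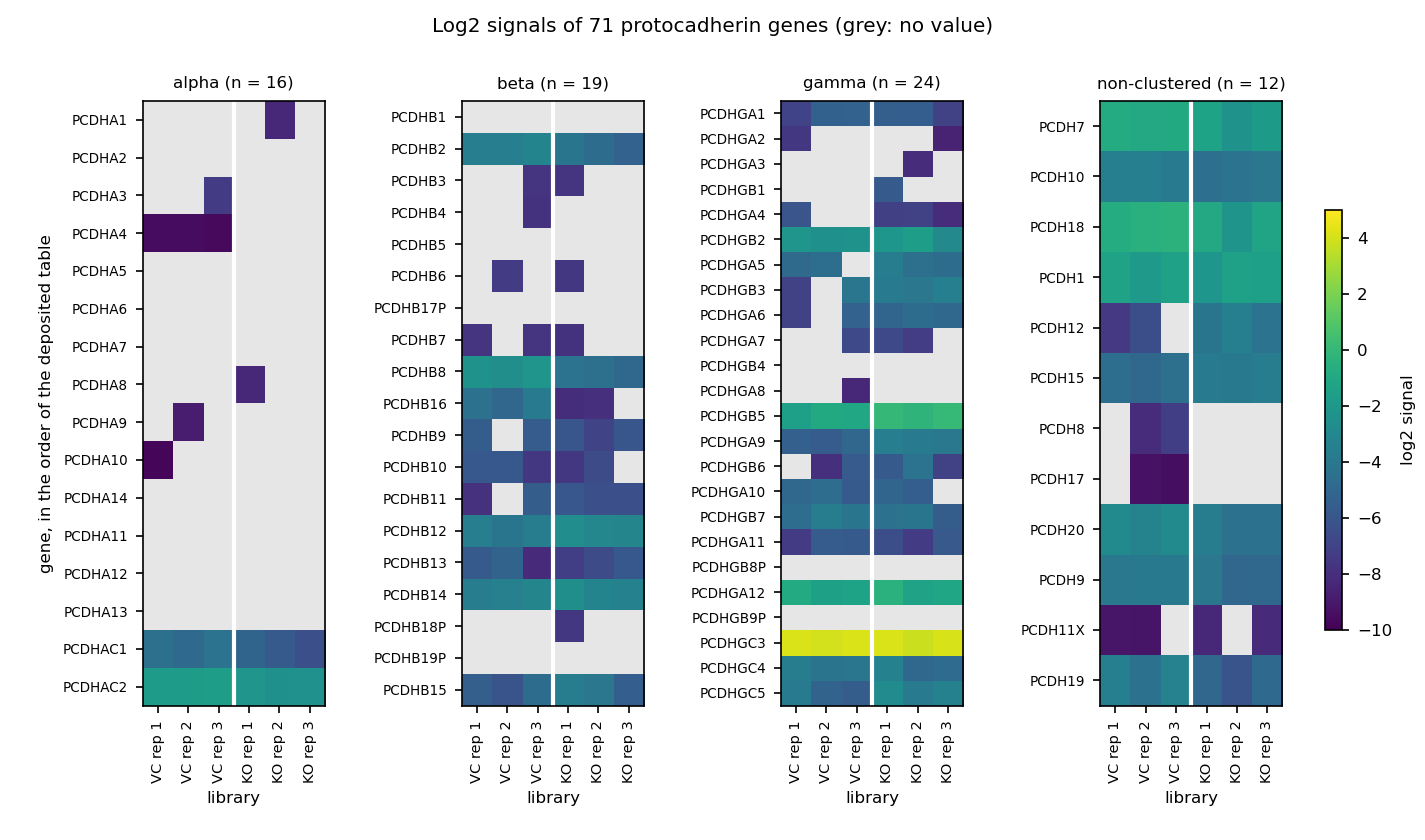
Log2 signals of all 71 protocadherin genes (rows) in the 6 libraries (columns), by family, with VC to the left and KO to the right of the white line and grey for no value. PCDHGC3 is the bright row, between 3.82 and 4.16 in every library, and most alpha genes are grey throughout.

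Enough values for the test, 2 or more per group, were present for 37 protocadherins, which were read from a limma fit over all 19306 such genes with Benjamini-Hochberg adjustment. At an adjusted p under 0.05, 15 of the 37 differed (40.5%), 6 higher (16.2%) and 9 lower (24.3%) in KO. Over all tested genes the shares were 32.9%, 13.1% higher and 19.8% lower. All but 1 of the 37 lay in the lower 50% of mean signals, where 26.6% of genes were called. The members' median log2 fold change was -0.14, beside -0.13 over all genes tested. Of the 26 members with 6 values, 14 had groups that did not overlap, beside 59.3% of all genes with 6 values. No test set the members as a whole against this background, and what follows is about single genes. Both tested alpha genes fell, 3 of 10 beta genes fell and 1 rose, 2 of 15 gamma genes rose and none fell, and of 10 non-clustered genes 4 fell and 3 rose. At an unadjusted p under 0.05 the gamma count was 3 in all (PCDHGB5, PCDHGA9 and PCDHGC5), each higher in KO. The excess of lower over higher members turned without VC replicate 1 or 3 (3 higher and 2 lower) and without KO replicate 2 (5 higher and 2 lower). Over all tested genes it also turned without VC replicate 1 (757 higher and 646 lower) and VC replicate 3 (654 higher and 569 lower). Without KO replicate 2 it did not turn over all tested genes (1734 higher and 2659 lower). The difference between families was not tested.

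**Figure D2:**
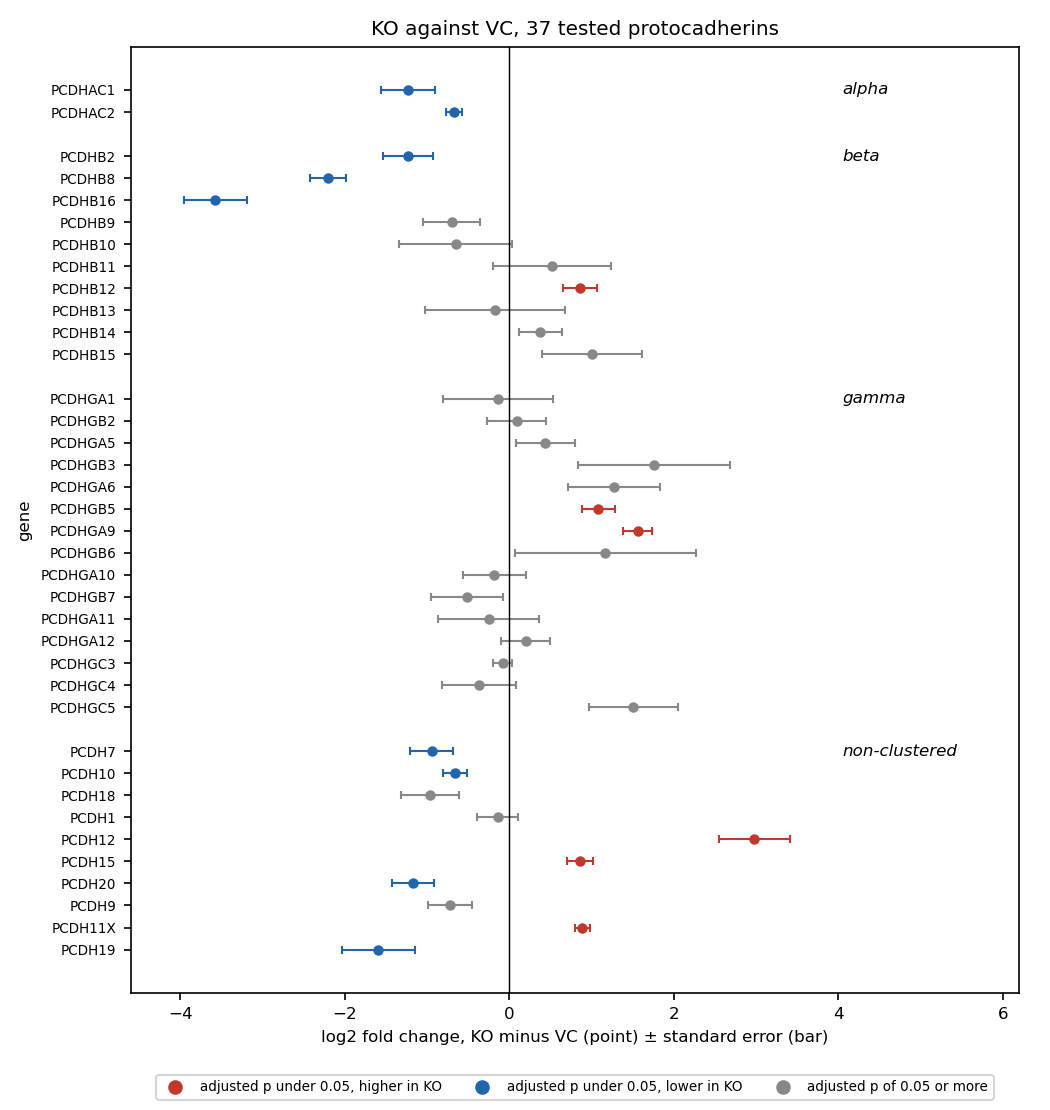
Log2 fold change, KO minus VC, with its standard error (bars) for the 37 tested protocadherins, by family and in the order of the table. Red and blue points passed an adjusted p under 0.05. PCDHB16 (-3.57) and PCDH12 (2.98) lie farthest from 0, and PCDHGC3 (-0.08) has one of the shorter bars.

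In the alpha cluster, the signal came almost wholly from PCDHAC2, whose variable exon is the last of the cluster and encodes a C-type isoform. It held 84.4% to 89.1% of the summed linear alpha signal in VC libraries and 88.0% to 93.8% in KO libraries. PCDHAC2 was at -1.68, -1.71 and -1.64 in VC and at -2.16, -2.46 and -2.42 in KO, about 97 to 110 and 63 to 79 estimated reads. The KO values all lay under the VC values, with a tight VC group. Its log2 fold change was -0.67 (standard error 0.10, limma adjusted p = 0.0135, a 1.59-fold lower mean), and the call was lost without VC replicate 1 (adjusted p = 0.0539) and without VC replicate 3 (0.0574). PCDHAC1, the other C-type alpha gene, was at -4.46, -4.88 and -4.28 in VC and at -5.19, -5.78 and -6.35 in KO. Its groups did not overlap either, and the log2 fold change was -1.23 (standard error 0.33, limma adjusted p = 0.0415). This call stood on 12 to 21 estimated reads in VC and 4.8 to 11 in KO, and it was lost when any library but KO replicate 1 was left out (highest adjusted p 0.115). The summed alpha signal was 0.343 to 0.379 in VC and 0.199 to 0.255 in KO on the linear scale. Reads in the constant exons cannot be assigned to a variable exon by position, and 45.01% of the 50-base windows of PCDHAC2 transcripts occur in transcripts of other members.

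The beta genes, single-exon genes whose proteins lack the shared tail, split in both directions within 1 cluster. PCDHB8 (chr5:141177790-141180529) was at -2.38, -2.61 and -2.15 in VC and at -4.31, -4.48 and -4.97 in KO. The lowest VC value was well above the highest KO value, and about 29, 23 and 36 estimated reads in VC stood against 8, 7 and 5 in KO. PCDHB8 fell by 2.20 on the log2 scale (standard error 0.22, limma adjusted p = 0.00789), a 4.61-fold lower mean. PCDHB16, the next member along the chromosome (chr5:141181399-141186399), was at -4.36, -5.06 and -3.88 in VC and at -8.04 and -7.97 in KO, where the cell of replicate 3 was empty. Each of the 2 KO values stood for about 1 estimated read, beside about 13, 7.7 and 20 in VC. The fit dropped KO replicate 3 and gave a log2 fold change of -3.57 (standard error 0.38, limma adjusted p = 0.0105), whose size is poorly known at 1 read. The call of PCDHB8 held in 6 of 6 fits with a library left out. For PCDHB16 it held in the 4 possible fits, of which 1 left out the empty KO replicate 3. Fits of PCDHB16 without KO replicate 1 or 2, the values that set its size, could not be run.

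PCDHB2, near the start of the cluster, was at -3.61, -3.61 and -3.25 in VC and at -4.18, -4.71 and -5.28 in KO. The 2 groups were apart, and PCDHB2 fell by 1.23 on the log2 scale (standard error 0.30, limma adjusted p = 0.0328), a call that was kept only without KO replicate 1 among the fits that left out a library (highest adjusted p 0.0964). PCDHB12 was at -3.61, -4.17 and -3.65 in VC and at -2.66, -3.04 and -3.15 in KO, every KO value above every VC value. It rose by a log2 fold change of 0.86 (standard error 0.21, limma adjusted p = 0.0334), and again only the fit without KO replicate 1 kept the call (highest adjusted p 0.0766). PCDHB14, the beta gene with the highest mean signal over the 6 libraries together though not within either group, was at -3.66, -3.46 and -3.20 in VC and at -2.54, -3.25 and -3.39 in KO. These values overlapped, and the log2 fold change of 0.38 (standard error 0.26) did not pass the test (limma adjusted p = 0.303). The other tested beta genes (PCDHB9, PCDHB10, PCDHB11, PCDHB13 and PCDHB15) had log2 fold changes from -0.70 to 1.01, none past the threshold, and each had a library at 5.1 estimated reads or fewer.

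The make-up of the beta signal differed between the groups, as a description of genes grouped after their values were seen. PCDHB8 and PCDHB16 together gave 42.1%, 39.7% and 42.5% of the summed beta signal in VC and 9.27%, 11.7% and 9.57% in KO. PCDHB12 and PCDHB14 gave 28.2%, 30.1% and 27.3% in VC and 56.5%, 54.6% and 62.3% in KO. The total was 0.572, 0.486 and 0.691 in VC and 0.586, 0.416 and 0.333 in KO, so the totals overlapped while the shares did not. Beta genes are close copies of each other, and this bears on the assignment of reads. Of the 50-base windows of PCDHB8, 45.8% occur in other members and 33.0% in PCDHB13, whose signals were low and scattered (-5.78, -5.23 and -8.16 in VC and -7.21, -6.60 and -5.87 in KO). PCDHB16 shares 11.3% of its windows with other members and 3.98% with PCDHB8. An antisense gene model covers 16.3% of the exonic bases of PCDHB16 and another covers 15.0% of those of PCDHB2, and neither model is listed in the table under that name. The library kit kept the strand, but the sources used here do not say whether the counting used it.

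**Figure D3:**
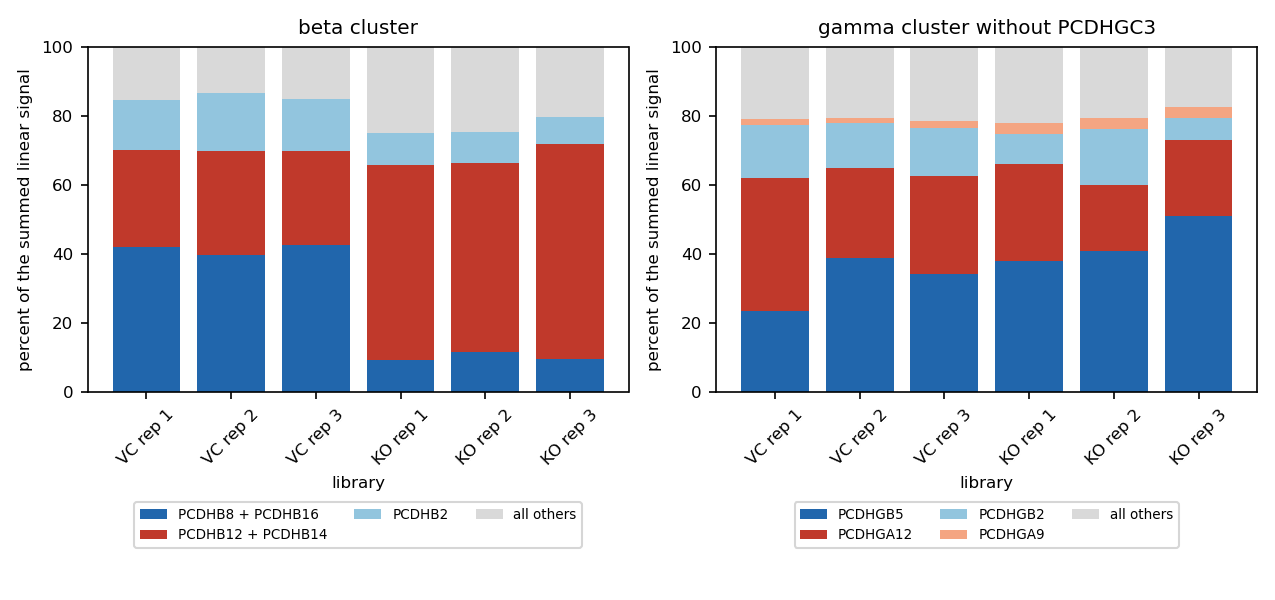
Share of the summed linear signal by library for the beta cluster (left) and for the gamma cluster without PCDHGC3 (right), stacked to 100 percent. PCDHB8 and PCDHB16 (dark blue, left) take 39.7 to 42.5 percent in VC and 9.27 to 11.7 percent in KO. PCDHGB5 (dark blue, right) takes 23.3 to 38.6 percent in VC and 37.8 to 51.1 percent in KO.

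PCDHGC3 (chr5:141475947-141512979), a C-type gamma gene, was by far the most abundant protocadherin and the only tested one in the upper 50% of signals. It was at 4.15, 3.98 and 4.16 in VC and at 4.15, 3.82 and 4.09 in KO, or about 4100 to 5200 estimated reads per library. The groups overlapped, and the log2 fold change was -0.08 (standard error 0.12, limma adjusted p = 0.639), the most precise estimate among the gamma genes. PCDHGC3 made up 91.9% to 92.4% of the summed gamma signal in VC and 87.1% to 89.3% in KO. Without it, the gamma sum was 1.39 to 1.47 in VC and 2.02 to 2.64 in KO on the linear scale, so this sum was higher in every KO library. Of the 50-base windows of PCDHGC3 transcripts, 38.4% occur in transcripts of other members, as do 55.3% of those of PCDHGB5. Reads in the constant exons cannot be assigned to a variable exon by position, and their part in the sum without PCDHGC3 was not tested. Single genes of that remainder went both ways, with log2 fold changes from -0.51 (PCDHGB7) to 1.76 (PCDHGB3).

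Much of that remainder was PCDHGB5 (chr5:141397987-141512979), the gamma gene with the second highest mean. It was at -1.54, -0.89 and -1.01 in VC and at 0.00, -0.25 and 0.05 in KO, with about 90 to 140 and 230 to 280 estimated reads. PCDHGB5 rose by a log2 fold change of 1.08 (standard error 0.20, limma adjusted p = 0.0181), a 2.12-fold higher mean, and lost the call without VC replicate 3 (adjusted p = 0.0576) or KO replicate 3 (0.0613). Its share of the gamma signal without PCDHGC3 was 23.3%, 38.6% and 34.1% in VC and 37.8%, 40.9% and 51.1% in KO, and these shares overlapped. PCDHGA9, the next variable exon (chr5:141402932-141512979), was at -5.39, -5.62 and -5.07 in VC and at -3.56, -3.87 and -3.97 in KO. Every KO library was above every VC library, with about 17 to 23 estimated reads against 5.0 to 8.2. It rose by a log2 fold change of 1.56 (standard error 0.18, limma adjusted p = 0.00963), a 2.94-fold higher mean, and the call held in all 6 fits that left out a library. PCDHGB4, whose promoter window is printed above with the same bases as that of PCDHGB5, had no value in any library, and PCDHGB5 shares 55.1% of its 50-base windows with PCDHGB4 transcripts, constant exons included.

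The other 12 tested gamma genes beside these did not pass the test. PCDHGA12, the third most abundant, was at -0.81, -1.45 and -1.27 in VC and at -0.43, -1.34 and -1.17 in KO (log2 fold change 0.20, limma adjusted p = 0.635). PCDHGB2 was at -2.15, -2.46 and -2.29 in VC and at -2.11, -1.58 and -2.95 in KO (0.09, limma adjusted p = 0.863). Both sets of values overlapped. The log2 fold changes farthest from 0 among them were those of PCDHGB3 (1.76, standard error 0.92), PCDHGC5 (1.51, standard error 0.54) and PCDHGA6 (1.27, standard error 0.56), each with 7.0 or fewer estimated reads in a VC library. PCDHGC5, one of the C-type genes, was at -3.81, -5.20 and -5.56 in VC and at -2.78, -3.89 and -3.38 in KO, with an adjusted p of 0.0817 by limma that passed without VC replicate 1 (0.0496). PCDHGC4 had a log2 fold change of -0.37 and passed without KO replicate 1 alone (-0.85, limma adjusted p = 0.0386).

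**Figure D4:**
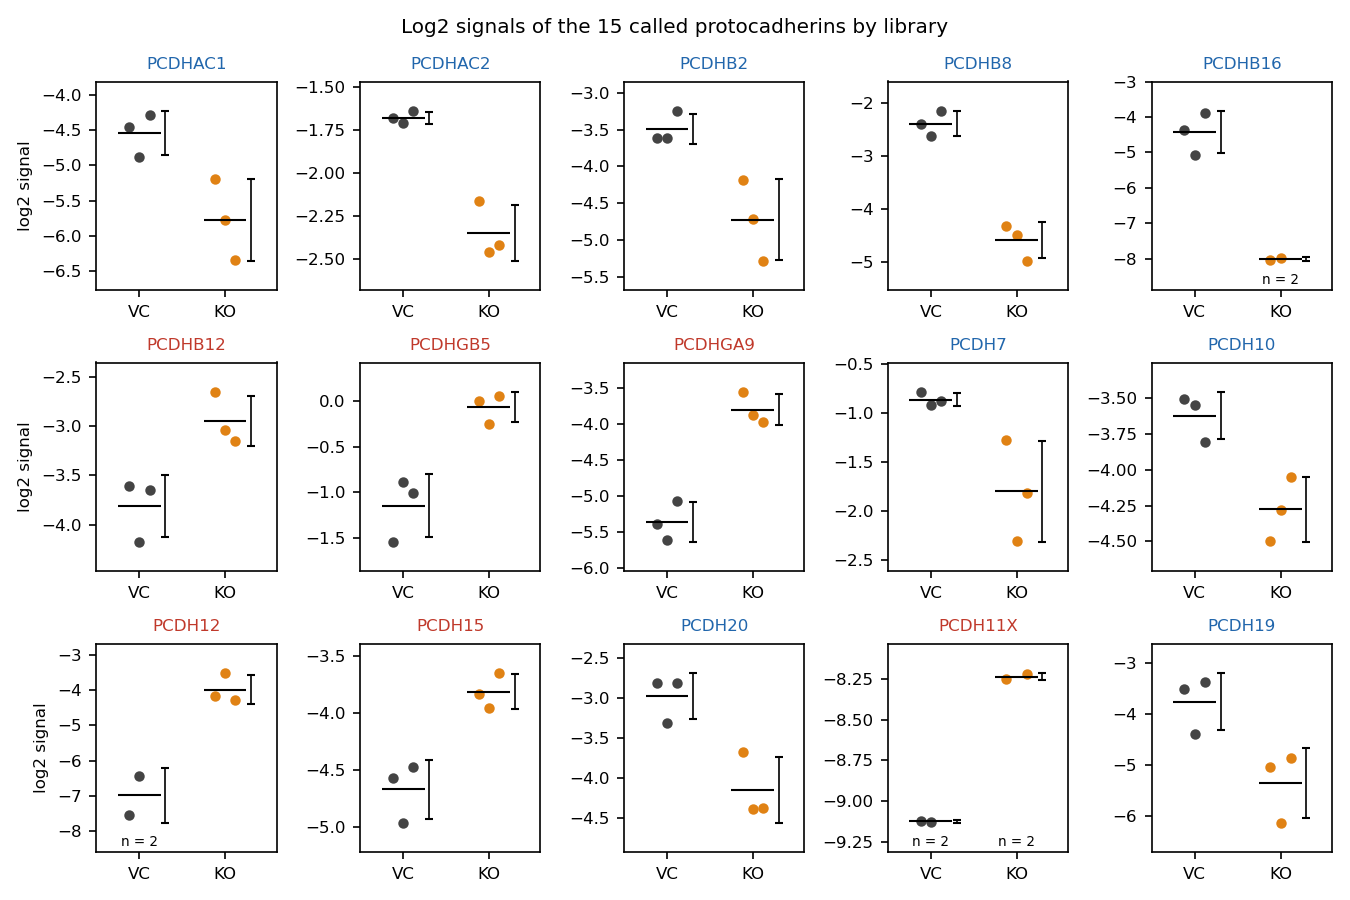
Log2 signals by library for the 15 called protocadherins, with VC in grey and KO in orange, the mean as a line, the standard deviation as a bar beside it, and a separate axis range in each panel. Gene names in blue were lower and names in red higher in KO. In each gene shown, the VC and KO points do not overlap, with 2 KO values for PCDHB16, 2 VC values for PCDH12 and 2 in each group for PCDH11X.

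Among the non-clustered genes, 7 of 10 tested were called, 4 lower and 3 higher. The share called was 32.9% over all genes tested and 26.6% in the lower 50% of mean signals, where all 10 lay. PCDH7 (chr4:30720415-31146805), a delta protocadherin whose tail binds the phosphatase inhibitor SET, had with PCDH18 the highest mean signals over all libraries together. In KO alone its mean (-1.8) lay under that of PCDH1 (-1.68). PCDH7 was at -0.79, -0.92 and -0.88 in VC and at -1.28, -2.30 and -1.82 in KO, about 190 to 220 and 82 to 170 estimated reads. The VC libraries were close together and the KO libraries spread, with KO replicate 2 lowest. PCDH7 fell by 0.94 on the log2 scale (standard error 0.26, limma adjusted p = 0.0462), and only the fit without KO replicate 1 kept the call (highest adjusted p 0.121). PCDH18 (chr4:137518918-137532494) was at -0.71, -0.49 and -0.37 in VC and at -0.97, -2.23 and -1.25 in KO, again with KO replicate 2 lowest. Its groups were apart, but the log2 fold change of -0.96 (standard error 0.35) did not pass the test (limma adjusted p = 0.0836) unless KO replicate 1 was left out (0.0417).

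PCDH10 (chr4:133149315-133208606), whose tail recruits the WAVE complex through NCKAP1 and which is silenced by methylation in several tumours, was at -3.51, -3.55 and -3.81 in VC and at -4.50, -4.28 and -4.05 in KO. It fell by 0.66 on the log2 scale (standard error 0.15, limma adjusted p = 0.0297). The call was lost when libraries were centred on the medians of genes with a value in every library (adjusted p = 0.0528). It was also lost without any VC replicate or KO replicate 2 (highest 0.0919). PCDH20 (chr13:61409685-61415522) was at -2.82, -3.31 and -2.81 in VC and at -3.67, -4.39 and -4.37 in KO, with no overlap. PCDH20 fell by 1.17 on the log2 scale (standard error 0.26, limma adjusted p = 0.0269), and without VC replicate 1 or 3 or KO replicate 2 or 3 it was not called (highest adjusted p 0.0842). A second coding gene model on the same strand covers 95.8% of the exonic bases of PCDH20 in GENCODE 29, and reads of these models cannot be told apart there.

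PCDH19 (chrX:100291644-100410273), the gene of an X-linked epilepsy, was at -3.51, -4.39 and -3.37 in VC and at -5.05, -6.13 and -4.86 in KO. Replicate 2 was the lowest in both groups, and the groups were apart. PCDH19 fell by 1.59 on the log2 scale (standard error 0.44, limma adjusted p = 0.0453), a call lost in every fit that left out a library (adjusted p 0.0561 to 0.123). PCDH9, another delta protocadherin, was at -3.97, -3.92 and -3.91 in VC and at -4.04, -5.02 and -4.91 in KO, and did not pass (log2 fold change -0.72, limma adjusted p = 0.0930) unless KO replicate 1 was left out (-1.03, adjusted p = 0.00441). PCDH1 overlapped between the groups, with a log2 fold change of -0.14 (limma adjusted p = 0.679).

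PCDH12 (chr5:141943585-141969741), also known as vascular endothelial cadherin 2, had the largest positive log2 fold change among tested members. It was at -7.52 and -6.42 in VC replicates 1 and 2 with no value in VC replicate 3, and at -4.17, -3.53 and -4.28 in KO. About 1.9 and 4.0 estimated reads in VC stood against 21, 32 and 19 in KO. The fit dropped VC replicate 3 and gave a rise of 2.98 on the log2 scale (standard error 0.43, limma adjusted p = 0.0158). This call held in the 4 possible fits without a library, of which 1 left out the empty VC replicate 3. Fits without VC replicate 1 or 2 could not be run. Of 8 endothelial markers tested, 2 rose and none fell, beside 13.1% higher and 19.8% lower over all tested genes. ROBO4, an endothelial guidance receptor, rose by 2.57 on the log2 scale (limma adjusted p = 0.00789), and TIE1, an angiopoietin pathway receptor, by 0.99 (limma adjusted p = 0.00606). The summed linear signal of the list was 20.8 to 23.5 in VC and 43.8 to 52.6 in KO. TIE1 weighed most in that sum, with the highest signal of the list in every library (4.21 to 4.36 in VC and 5.20 to 5.35 in KO, log2). VWF (-0.32) and KDR (-0.21) had negative log2 fold changes, TEK (1.59) and EGFL7 (0.56) positive ones, and none of these was called. The defining endothelial cadherin CDH5 was at -7.90 to -7.82 in 4 libraries and without a value in VC replicate 2 and KO replicate 3, and PECAM1 did not pass the test (log2 fold change 0.63, limma adjusted p = 0.126). The part of these markers in the PCDH12 result was not tested, and in bulk RNA more cells of a kind and more RNA per cell cannot be told apart.

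PCDH15 (chr10:53802771-55627942), a component of the tip links of hair cells, was at -4.57, -4.96 and -4.47 in VC and at -3.83, -3.95 and -3.65 in KO. All KO values were above the VC values, and PCDH15 rose by 0.86 on the log2 scale (standard error 0.16, limma adjusted p = 0.0194). The call was lost without VC replicate 1 or 3 or KO replicate 3 (highest adjusted p 0.0622). PCDH11X (chrX:91779261-92623230), the X-linked copy of an X-Y gene pair, was at -9.12 and -9.13 in VC replicates 1 and 2 and at -8.25 and -8.22 in KO replicates 1 and 3. Its log2 fold change of 0.89 (standard error 0.093, limma adjusted p = 0.0153) stood on about 1 estimated read in each VC library and about 2 in each KO library. The values within each group were nearly equal, and with trend and robust moderation the adjusted p was 0.392.

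The factors that regulate the clusters were read from the same fit, in lists written with earlier results known. For these and every list below, the shares to set beside the counts are those over all tested genes. There, 32.9% were called, 13.1% higher and 19.8% lower. Of 13 CTCF and cohesin genes, 3 fell and none rose (median log2 fold change -0.27). RAD21, a cohesin subunit, lay between 6.49 and 6.64 in VC and between 5.98 and 6.14 in KO (log2 fold change -0.53, limma adjusted p = 0.0140). STAG1, another subunit, had a log2 fold change of -0.54 (limma adjusted p = 0.0460), and ESCO2, which acetylates cohesin, -1.05 (limma adjusted p = 0.0389). CTCF itself was at 4.74 to 4.78 in VC and 4.45 to 4.68 in KO, and its log2 fold change of -0.22 did not pass (limma adjusted p = 0.102).

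Of 12 chromatin repressors, 2 rose and 4 fell (median -0.13). DNMT3B, a de novo DNA methyltransferase that methylates promoters of unexpressed clustered genes, was at 2.70, 2.60 and 2.66 in VC and at 1.56, 0.93 and 1.29 in KO. Its groups were far apart, and it fell by 1.39 on the log2 scale (standard error 0.17, limma adjusted p = 0.00967). SMCHD1, a silencer of the clusters, had a log2 fold change of -0.67 (limma adjusted p = 0.0123), and DNMT1, the maintenance methyltransferase, of -0.46 (limma adjusted p = 0.0462). SETDB1, an H3K9 methyltransferase, rose by 0.48 (limma adjusted p = 0.0153). Its partner ATF7IP fell by 0.40 (limma adjusted p = 0.0345), and the methyl-DNA binder MBD1 rose by 0.32 (limma adjusted p = 0.0341). No list here is called different from other genes.

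Partners of the proteins moved in both directions. Of 10 WAVE complex genes and actin partners, 4 rose (ABI1, CYFIP1, ABI2 and BRK1, log2 fold changes 0.28 to 0.51) and 2 fell (RAC1, -0.37, and WASF3, -0.35), with a median of 0.04. Of 11 kinases, phosphatases and adaptors, FYN, a Src family kinase, rose by 0.92 (limma adjusted p = 0.0102), while SET (-0.40) and TAOK2 (-0.62) fell, with a median of -0.11. Of 7 genes for ADAM10 and gamma-secretase, which cut protocadherins at the membrane, APH1B rose by 0.89 (limma adjusted p = 0.0152) and NCSTN by 0.53 (limma adjusted p = 0.0196), and the median was 0.03.

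The genes around the clusters on chromosome 5 showed no single direction. Of 21 neighbours listed, 19 were tested, 4 rose and 2 fell, with a median of -0.02. SPRY4 (0.74), DELE1 (0.65), ARAP3 (0.37) and RNF14 (0.32) had positive log2 fold changes past the threshold, and DIAPH1 (-0.52) and ZMAT2 (-0.25) negative ones. DIAPH1, a formin, lies beyond the end of the gamma cluster. Among 13 tested of 18 classical cadherins, 2 rose and 2 fell, with a median of 0.00. CDH2, N-cadherin, was at 4.82, 4.91 and 4.82 in VC and at 5.13, 5.18 and 5.03 in KO (log2 fold change 0.26, limma adjusted p = 0.0497), a per-length signal above that of every protocadherin in each library. CDH4, at 2.57 to 2.72 in VC, fell to between 0.46 and 0.88 in KO (limma adjusted p = 0.00571), and CDH3 fell by 2.12 from a low level (limma adjusted p = 0.00963). CDH15 rose by 4.86 (standard error 0.93, limma adjusted p = 0.0198), also from a low level. Its values were -7.3, -5.65 and -7.38 in VC and a scattered -3.75, -0.93 and -1.09 in KO.

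Markers of other cell types moved in both directions. Of 8 neuronal markers, DCX had no value in any library, 6 were tested, GAP43 rose (log2 fold change 0.72) and RBFOX3 fell (-2.01), and the summed signal was 1.71 to 1.87 in VC and 1.63 to 2.08 in KO. Of the 9 mesenchymal and osteoblast markers, 7 were tested, 4 rose (SPP1, ALPL, SPARC and COL1A1, log2 fold changes 0.33 to 1.55) and COL1A2 fell (-0.81). Of 8 epithelial and blood cell markers, 5 were tested, KRT8 rose (0.59) and EPCAM fell (-0.67), with a summed signal of 577 to 640 in VC and 553 to 609 in KO. Their part in the protocadherin results was not tested.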

How the data were processed

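Total RNA of 3 VC and 3 KO libraries was sequenced, and the submitters' processing notes name CASAVA, STAR, Partek and the build GRCh38.p13, in roles that are not given in the sources used here. The authors deposited log2 signals, quantile-normalized between libraries, with empty cells where a gene had no value. The linear unit and annotation are not given in the sources used here. Columns were matched to samples by label. Read depth is unknown. Read numbers were estimated by taking, in each library, the level at which genes valued in that library alone gathered, scaled by exonic length, as 1 read, and did not enter the main test.

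Signals were tested in R 4.3.3 with limma 3.58.1 (no trend, two-sided), for genes with 2 or more values per group, with Benjamini-Hochberg adjustment over 19306 genes. The test was checked on simulated data. Lengths, positions and 50-base windows came from GENCODE 29 basic transcripts, and promoters from RefSeq. Members and lists were chosen with earlier results of these data known. Named genes were called protocadherins, the 2 highest per family, genes valued in 1 group, up to 4 called genes per list, cell type markers without a value, and CNTNAP4. Others were named after their values were seen. Alternatives were genes in the upper 50% of signals, genes with 6 values, 1 added to the linear signal, median-centred libraries, trend with robust moderation, a replicate block, each library left out and, added after seeing the data, a mean of at least 10 estimated reads. The centring used the medians of genes with 6 values, not those of all valued genes.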

Additional observations from a re-analysis of the deposited data

How the results depend on the processing

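The protocadherin counts rested on how low signals were handled and on single libraries. Against 15 called genes (6 higher, 9 lower), the number was 0 (0 higher, 0 lower) in the upper 50% of signals, where 1 protocadherin was left to test, 7 (2 higher, 5 lower) with 1 added to the linear signal, and 3 higher with trend and robust moderation, where the total was 11. Over all genes, 5702 of 9653, 7773 of 19306 and 7923 of 19306 were called under these settings, in the same order. The replicate numbers did not pair the libraries (same-number correlations of deviations 0.023, 0.005 and -0.007), and with a replicate block 6 protocadherins (3 higher, 3 lower) and 1740 genes (661 higher, 1079 lower) were called. With single libraries left out, 5 to 15 protocadherins (2 to 5 higher, 2 to 10 lower) and 1223 to 8669 genes (654 to 2940 higher, 569 to 5729 lower) were called, the lowest totals without VC replicate 3. Protocadherins with a mean of at least 10 estimated reads gave 14 called of 26 tested (6 higher, 8 lower), beside 7201 of 14243 over all such genes. PCDHB16 and PCDH11X were too low to enter, and PCDHGC5 gained a call (limma adjusted p = 0.0495). The median log2 fold change of the members (-0.144) moved by no more than the spread between libraries (0.146) under every alternative. That limit is weak, since a median of 0 would have met it. With 1 added to the linear signal the median was -0.006, and in the upper 50% of signals it was the value of 1 gene. Of 203 values for 18 named protocadherins, 134 kept their direction and side of the threshold, 64 lost the call, 3 gained it (all PCDH18), and 2 changed sign. Both were of PCDHGC3 and neither was called, at 0.01 with median-centred libraries and at -0.14 to 0.02 with single libraries left out, above 0 only without KO replicate 2. PCDHB8 and PCDHGA9 kept the call under all 12 alternatives. PCDHB16 (7 of 8) and PCDH12 (8 of 9) lost it only with 1 added to the linear signal. The cause of the other losses was not tested. Estimated reads ran from about 0.85 (PCDH11X) to 280 (PCDHGB5) per library among the 36 tested protocadherins in the lower 50% of signals.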
